A study of Homo sapiens with 4 samples.

Results

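The messenger RNAs of 28 proteins of the small (40S) ribosomal subunit were followed in cells labelled HepG2, a human liver cancer line, with and without targeting of TXNDC9. The 28 genes are RPSA, RPS2, RPS3, RPS3A, RPS4X, RPS6, RPS7, RPS9, RPS10, RPS12, RPS13, RPS14, RPS15, RPS15A, RPS16, RPS18, RPS19, RPS20, RPS21, RPS23, RPS24, RPS25, RPS26, RPS27, RPS27A, RPS28, RPS29 and FAU, and each was 1 row, found by its symbol, of the 57979 rows with values. Polyadenylated RNA was sequenced in 2 wild-type (WT) libraries and 2 libraries of TXNDC9 knockout (TXNDC9-KO) cells, all grown in DMEM with 10% serum. In the study's methods, Cas9 came from a lentiviral vector with either of 2 guides against TXNDC9, a thioredoxin-domain cofactor of the TCP1 chaperonin. Which guide these libraries carry, and whether the cells are 1 clone or a sorted pool, is not given in the sources used here. In the study, infected cells were sorted before use, and its control cells in other assays carried the vector alone, whereas the labels here give wild type. No label says that the 2 libraries of a group came from separate cultures, so p-values measure the spread between these libraries, which may be technical.

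The 40S subunit reads the mRNA during translation. It is built of 1 ribosomal RNA and a set of proteins that are needed in equal numbers, most of them for the processing of that RNA, so their mRNAs are abundant and usually move together. In vertebrates most of these mRNAs begin with a C followed by an unbroken stretch of C and U, the 5′ terminal oligopyrimidine (TOP) tract, through which growth signals set their translation. Mutation of several of the genes causes Diamond-Blackfan anaemia, a failure of red cell formation. Liver cells and hepatoma lines hold many ribosomes because they secrete large amounts of plasma protein.

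Some of the start sites are printed, since start sites carry a feature that most of the members share outside these measurements. RefSeq start sites were found for 25 of the 28 genes (28 starts on GRCh38.p14), and RPS2, RPS15A and RPS20 had no entry. Each line gives the sense strand from 10 bases before the start to the 20th base from it. Capitals mark the run of C and T that begins with a C at the start site or, where none does, the longest run of C and T that touches the 10 bases on either side.
RPS27 (chr1:153990752-153990781, plus strand): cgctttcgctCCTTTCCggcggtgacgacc
RPS24 (chr10:78033853-78033882, plus strand): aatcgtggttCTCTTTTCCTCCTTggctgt
RPS16 (chr19:39435930-39435959, minus strand): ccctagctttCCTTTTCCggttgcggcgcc
RPS6 (chr9:19380217-19380246, minus strand): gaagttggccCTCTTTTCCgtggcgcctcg
RPS12 (chr6:132814559-132814588, plus strand): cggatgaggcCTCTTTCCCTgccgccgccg
RPS18 (chr6:33272065-33272094, plus strand): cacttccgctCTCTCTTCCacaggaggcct
RPS21 (chr20:62387093-62387122, plus strand): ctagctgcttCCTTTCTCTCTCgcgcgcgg
RPS15 (chr19:1438386-1438415, plus strand): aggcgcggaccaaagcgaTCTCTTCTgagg
RPS28 (chr19:8321486-8321515, plus strand): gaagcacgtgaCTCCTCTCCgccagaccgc
RPS29 (chr14:49598691-49598720, minus strand): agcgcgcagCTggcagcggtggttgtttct

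A C at the start site followed by at least 4 bases of C or T was found at a start of 19 of the 25 genes, or 67.9% of their starts, against 4.07% of the 35116 starts in the table. These runs were 6 to 14 bases long. The 6 genes without such a run were RPS4X, RPS7, RPS15, RPS26, RPS28 and RPS29. This division depends on the exact base annotated as the start, which was not checked in these cells. The longest run near that base was 11, 8, 9 and 9 bases in RPS7, RPS15, RPS26 and RPS28, and 5 and 2 bases in RPS4X and RPS29. A looser search, for a run of at least 8 C or T touching the 10 bases on either side of the start, found 22 of the 25 genes, against 15.2% of all starts. The sequence CACGTG, the E-box that MYC and MAX bind, reads the same on both strands and was searched because the study concerns MYC. It lay within the 300 bases around the start (250 before it, 50 from it) of 2 genes, RPS19 and RPS28, and of 7.14% of the members' starts against 7.26% of all starts. In RPS28 it began 6 bases before the start and is visible in the line above.

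TXNDC9 itself was 35.1 and 37.3 FPKM in the WT libraries and 21.9 and 27.6 FPKM in the TXNDC9-KO libraries, with a log2 fold change of -0.55 (SE 0.14, adjusted p = 0.0145 from limma), which missed the threshold of 0.01. After conversion to TPM, a unit with the same sum in every library, the value turned to 0.12. These values are of mRNA. By western blot the study reported significantly less TXNDC9 protein in sorted cells with Cas9 and a guide. The mRNA level does not show how much protein was left. FPKM (fragments scaled to transcript length and to the mapped fragments of the library) summed to between 535973 and 971102 in a library, with both TXNDC9-KO sums below both WT sums. The depth of the libraries is unknown, since no counts were used here. The label HepG2 was checked with 9 genes of hepatocytes (ALB, AFP, APOA1, APOB, TTR, TF, SERPINA1, FGB and HNF4A). None passed the filter on low values, the highest value of any of them in any library was 0.449 FPKM (AFP), and 21 of the 36 values were listed at 0. The defining markers of a hepatoma line were therefore absent from all 4 libraries, and the cells are called here by their label only. The leukocyte gene PTPRC and the endothelial gene PECAM1 were at most 0.261 FPKM, whereas COL1A1, a collagen of connective tissue, was 31.5 and 22.8 FPKM in WT and 20.7 and 17.5 FPKM in TXNDC9-KO.

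All 28 members passed the filter of an average FPKM above 1 and ranked high in every library. In the WT libraries their median was 1792 and 2337 FPKM, against a median of 12.6 FPKM over the 13246 genes tested, and 22 and 24 of them were among the 100 highest genes. In the TXNDC9-KO libraries their median was 993 and 1096 FPKM, and 21 were among the 100 highest genes in each. In bulk RNA a lower share of such mRNAs in every cell and a different mix of cells cannot be told apart. Together they held 7.06% and 7.94% of the summed FPKM of the WT libraries and 5.82% and 5.95% of that of the TXNDC9-KO libraries. Within a library the highest member was 7.58 to 8.84 times the lowest.

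**Figure D1:**
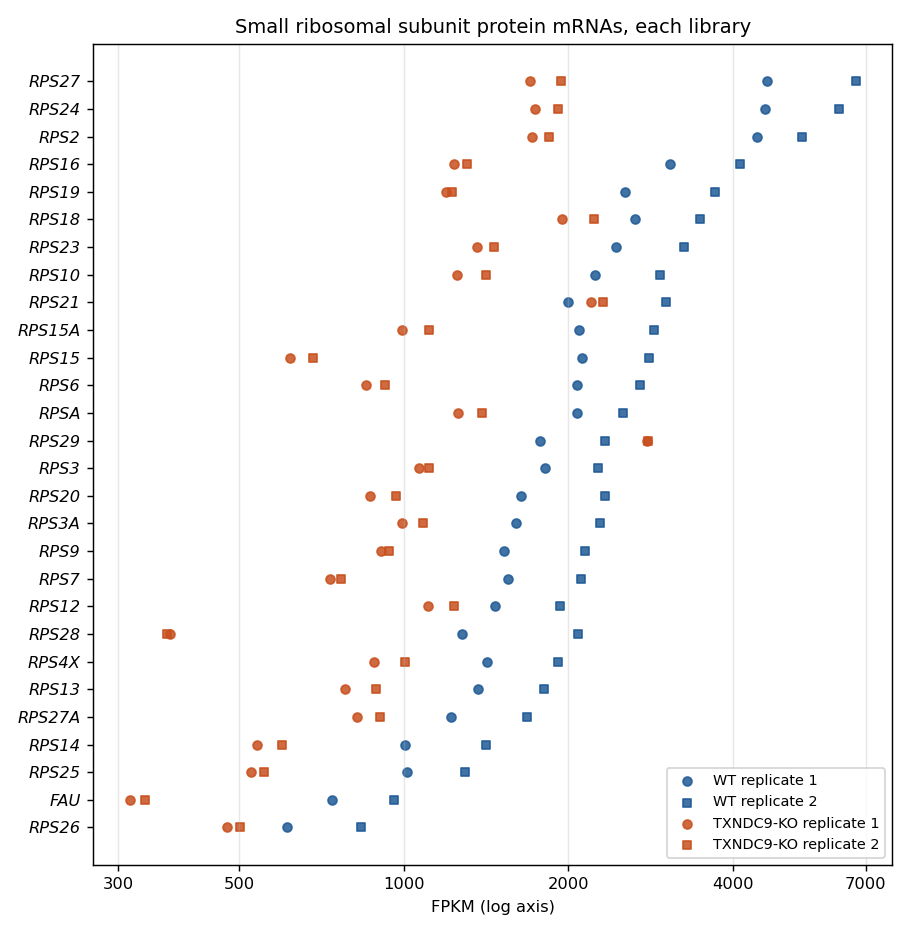
FPKM of the 28 small-subunit mRNAs (log axis) in each of the 4 libraries, ordered by WT mean, with WT in blue, TXNDC9-KO in orange, replicate 1 as circles and replicate 2 as squares. In 26 rows both orange points lie left of both blue points; RPS21 overlaps and RPS29 lies to the right.

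The WT order began with RPS27, RPS24 and RPS2 in both WT libraries. RPS27 (eS27, a zinc-binding protein of the platform side) was 4622 and 6720.0 FPKM in WT and 1703 and 1941 FPKM in TXNDC9-KO. RPS24, which contacts the body of the subunit and is mutated in Diamond-Blackfan anaemia, was 4579.8 and 6249.6 FPKM in WT and 1734 and 1916 FPKM in TXNDC9-KO. RPS2, which lines the mRNA entry channel, was 4422 and 5339 FPKM in WT and 1713 and 1844 FPKM in TXNDC9-KO. All 3 were separated between the groups, and their TXNDC9-KO means were 32.1%, 33.7% and 36.4% of their WT means. RPS2 fell by 1.45 on the log2 scale (SE 0.22, adjusted p = 0.00226 from limma). By the mean over all 4 libraries the lowest levels belonged to FAU, RPS26 and RPS25. In both TXNDC9-KO libraries RPS28 (372 and 368 FPKM) stood below RPS26 and RPS25. FAU, whose product is cleaved into a ubiquitin-like protein and eS30, was 739 and 959 FPKM in WT and 315 and 336 FPKM in TXNDC9-KO. It fell by 1.37 on the log2 scale (SE 0.18, adjusted p = 0.00135 from limma). RPS26, a late-joining protein at the mRNA exit, was 609.8 and 835 FPKM in WT and 474 and 501 FPKM in TXNDC9-KO. RPS25, known for its part in initiation at viral internal entry sites, was 1013 and 1291 FPKM in WT and 524 and 555 FPKM in TXNDC9-KO, and fell by 1.08 on the log2 scale (SE 0.18, adjusted p = 0.00317 from limma). In WT the order is only coarse, since 25 of the 27 neighbouring pairs differed by less than the larger of their SDs (n = 2).

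The question of the comparison was which genes depend on TXNDC9 in these cells. Of the 28 mRNAs, 14 were lower in the TXNDC9-KO libraries and 0 were higher at an adjusted p under 0.01 (limma with Benjamini-Hochberg adjustment over all 13246 genes) and a fold change of at least 2. Over all tested genes these shares were 15.3% lower and 14.2% higher. At an unadjusted p under 0.05, 25 members were lower and 0 higher, where 38.3% of all tested genes were lower (5073 genes) and 4369 genes were higher. The median log2 fold change of the members was -1.03, and that of all tested genes -0.09. Values did not overlap between the groups for 27 members, with 26 lower and 1 higher in TXNDC9-KO, where 45.9% of all tested genes did not overlap in the lower direction and 40.1% in the higher. Another 4 members, RPS3, RPS9, RPS13 and RPS23, passed the adjusted p but not the fold, which made 18 past the adjusted p, all lower, where 27.1% of all tested genes passed lower and 23.7% higher. RPS23 lay just short of 2-fold at -0.9996. The fold changes are on the log2(FPKM + 0.1) scale, where the added 0.1 hardly matters at these levels.

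The called members with the largest falls were RPS28, RPS15, RPS27, RPS24 and RPS16. RPS28, a small protein of the head at the mRNA exit, was 1277 and 2080.0 FPKM in the WT libraries and 372 and 368 FPKM in the TXNDC9-KO libraries. The TXNDC9-KO values were close together and far below both WT values, and the log2 fold change was -2.14 (SE 0.25, adjusted p = 0.00109 from limma). The gene (ENSG00000233927) lies on the plus strand of chromosome 19 of hg38 from 8321158 to 8323340, where NDUFA7 overlaps it on the minus strand outside its canonical exons. NDUFA7, a subunit of respiratory complex I, was 189 and 252 FPKM in WT and 52.3 and 67.3 FPKM in TXNDC9-KO, and its part in the RPS28 values was not tested.

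RPS15, a head protein that reaches toward the decoding site, was 2119 and 2808 FPKM in WT and 619 and 682 FPKM in TXNDC9-KO. Its log2 fold change was -1.91 (SE 0.21, adjusted p = 8.50e-04 from limma), and the groups did not overlap. RPS27 fell by 1.62 (SE 0.27, adjusted p = 0.00310 from limma) and RPS24 fell by 1.55 (SE 0.25, adjusted p = 0.00274 from limma) on the log2 scale. RPS16, the head protein whose tail reaches the peptidyl site, was 3072 and 4111 FPKM in WT and 1234 and 1302 FPKM in TXNDC9-KO. It fell by 1.49 on the log2 scale (SE 0.22, adjusted p = 0.00226 from limma). The other called members were RPS2, RPS6, FAU, RPS19, RPS7, RPS15A, RPS20, RPS25 and RPS14, with log2 fold changes from -1.45 (RPS2) to -1.07 (RPS14). Among these, RPS6 is the substrate of the S6 kinases, RPS19 is the gene most often mutated in Diamond-Blackfan anaemia, and RPS14 is the ribosomal gene lost in the 5q deletion of myelodysplasia. RPS6 went from 2390.1 ± 448 to 887 ± 48.5 FPKM, RPS19 from 3125 ± 828 to 1210.1 ± 21.9 FPKM and RPS14 from 1207 ± 289 to 568 ± 43.0 FPKM (SD, n = 2 in each group).

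At the other end stood RPS29, RPS21, RPS12, RPS18 and RPS26, none of which passed the adjusted p of 0.01. RPS29, a zinc-binding protein of the head, was 1771 and 2337 FPKM in the WT libraries and 2783 and 2800.3 FPKM in the TXNDC9-KO libraries. It was the only member with both TXNDC9-KO values above both WT values, with a log2 fold change of 0.46 (SE 0.22, adjusted p = 0.118 from limma). The gene (ENSG00000213741) lies on the minus strand of chromosome 14 from 49570984 to 49599164. RN7SL1, an abundant RNA of the signal recognition particle, lies within it on the other strand outside its canonical exons, and was 73.9 and 240.1 FPKM in WT and 215 and 143 FPKM in TXNDC9-KO, so its values overlapped between the groups. RPS21, which sits beside RPSA on the back of the subunit, was 1996 and 3021 FPKM in WT and 2197 and 2313 FPKM in TXNDC9-KO. Both TXNDC9-KO values lay between the WT values, and the log2 fold change was -0.12 (SE 0.26, adjusted p = 0.692 from limma).

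RPS12, a protein of the beak, was 1466 and 1928 FPKM in WT and 1108 and 1235 FPKM in TXNDC9-KO (log2 fold change -0.52, SE 0.21, adjusted p = 0.0673 from limma). RPS18, a head protein at the bridge to the large subunit, was 2643 and 3479 FPKM in WT and 1943 and 2227 FPKM in TXNDC9-KO (log2 fold change -0.54, SE 0.23, adjusted p = 0.0826 from limma). RPS26 had a log2 fold change of -0.55 (SE 0.19, adjusted p = 0.0458 from limma). In each of these 3 both TXNDC9-KO values lay below both WT values, by less than 2-fold on the means. The remaining members, RPS10, RPS3A, RPS4X, RPSA and RPS27A, had log2 fold changes between -0.95 and -0.73 and adjusted p-values from limma between 0.0107 and 0.0246. RPS27A is made as a fusion with ubiquitin, like FAU with its ubiquitin-like partner, and RPSA also serves as the laminin receptor at the cell surface.

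**Figure D2:**
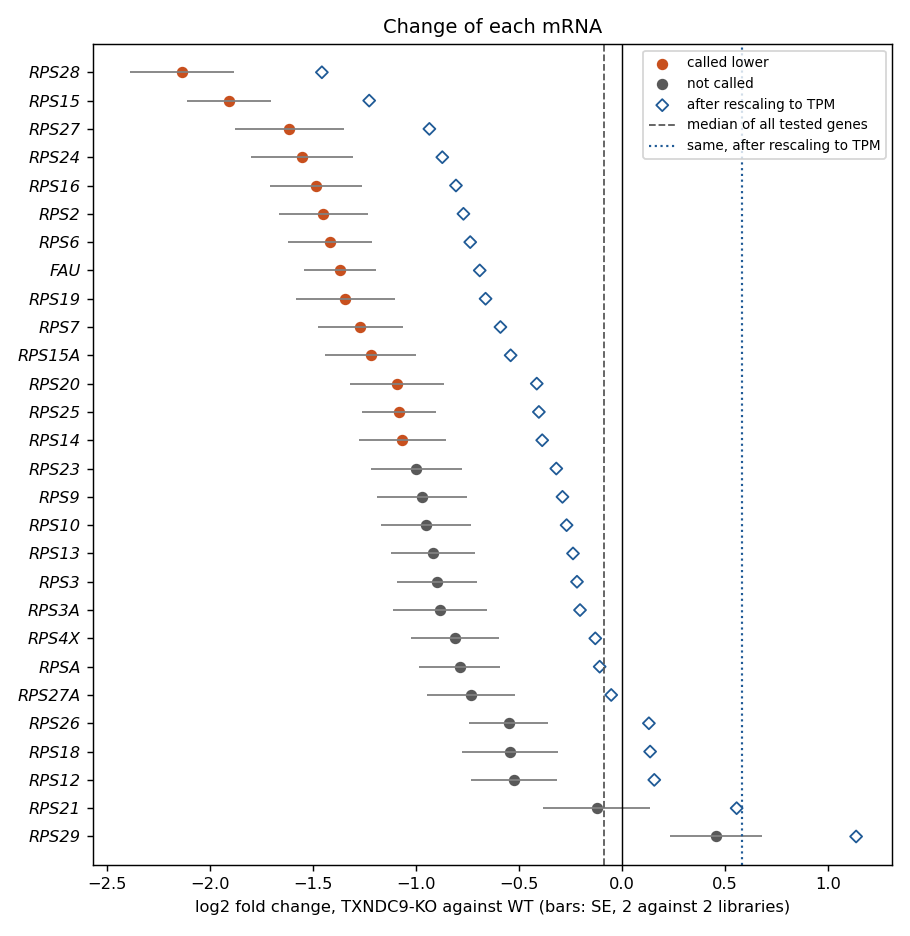
Log2 fold change of each mRNA, TXNDC9-KO against WT (bars: SE, 2 against 2 libraries), with called members in orange, others in grey, and the same value after rescaling each library to TPM as open blue diamonds; the dashed and dotted lines are the medians of all tested genes on the 2 scales (-0.09 and 0.59). As deposited, 27 members lie below 0; after rescaling, 5 lie above it.

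The size of the fall depends on how the libraries are scaled. Conversion of the FPKM to TPM, a unit that adds up to 1 fixed total in every library, moved the members by 0.68 on the log2 scale, to a median of -0.35, while the median of all tested genes moved to 0.59. On that scale RPS28 (-1.46) and RPS15 (-1.23) were called lower and RPS29 (1.14) higher, where 3.37% of all tested genes were called lower and 33.1% higher. RPS12, RPS18, RPS21 and RPS26 had positive values there (0.16, 0.14, 0.56 and 0.13). The distance of the members' median from that of all tested genes was nearly unchanged by the scaling. When a loess curve on the length and GC content of canonical transcripts was taken from each library, 7 members were called lower. RPS6, RPS15, RPS15A, RPS24, RPS27 and RPS28 kept their call, RPS23 gained it, and the other 8 of the 14 lost it. On those values the median was -0.76, and 7.39% of all tested genes were called lower and 6.41% higher. Without the filter on low values, which raised the rows in the fit to 26435, 2 members were called lower, where 5.37% of rows were called lower and 5.98% higher. The members' canonical transcripts had a median of 722.5 nt, against 2866.5 nt over the 13112 tested genes with a length, and a median GC content of 47.9% against 48.5%. Those of RPS23, RPS15A and RPS28 were 3252, 2203 and 1330 nt, for coding lengths of 429, 390 and 207 nt. Those of RPS27 and RPS24 were 352 and 534 nt. Whether these are the transcripts expressed here was not tested, and the corrected values and calls depend on the lengths taken. What part length has in the members' falls was not tested.

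**Figure D3:**
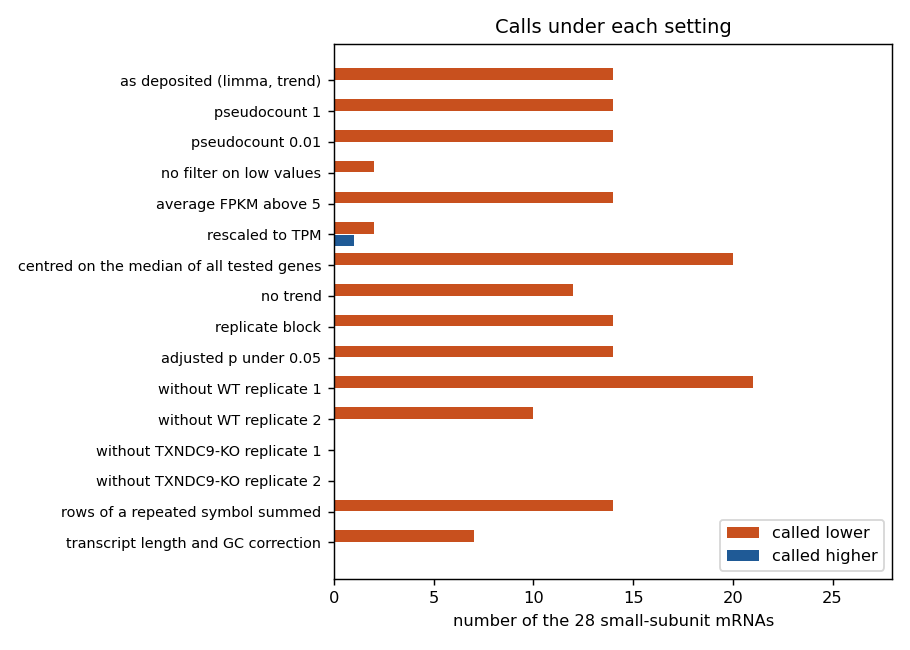
Number of the 28 mRNAs called lower (orange) and higher (blue) under the fit as deposited and each alternative. The count is 14 for the values as deposited, 2 after rescaling to TPM, and 0 when either TXNDC9-KO library is left out.

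The WT libraries differed from each other across the whole group. All 28 mRNAs were higher in WT replicate 2 than in WT replicate 1, by a median of 0.43 on the log2 scale (range 0.27 to 0.70), against a median of 0.09 over all tested genes. The TXNDC9-KO libraries differed by a median of 0.12 over the members. The SE of the members' log2 fold changes was 0.18 to 0.27. Without WT replicate 1 the members' median was -1.24 and 21 were called lower, and without WT replicate 2 it was -0.81 and 10 were called lower, where 19.9% and 11.8% of all tested genes were called lower. Leaving out TXNDC9-KO replicate 1 or 2 left medians of -0.97 and -1.09. With the WT pair alone to set the spread, limma made no calls in either fit, among the members or among all tested genes.

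A level relative to the other members does not depend on the scaling of a library, so each library was also set to its own median over the 28 mRNAs and limma was fitted to all genes again. The median SE of the members fell from 0.22 to 0.06 by this step. The small SEs, and the adjusted p-values below, also rest on the trend in limma's prior variance. Without that trend the relative SE was 0.158 for RPS15 and 0.192 for RPS28, against 0.060 and 0.106 with it. Relative to the median member, 17 members passed an adjusted p under 0.01 (limma with Benjamini-Hochberg adjustment), 11 lower and 6 higher, and 11 did not. Over all tested genes 4.76% passed lower and 54.1% higher on this scale. This background reflects that the members' median log2 fold change lies below that of all tested genes. Past a 2-fold difference were 2 members, RPS28 lower and RPS29 higher, where 1.57% and 43.6% of all tested genes were called.

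RPS29 was 0.988 times the median member in WT replicate 1, level with it in WT replicate 2, and 2.80 and 2.55 times in the TXNDC9-KO libraries. It stood at position 15 of the 28 in both WT libraries and at position 1 in both TXNDC9-KO libraries. The relative log2 fold change was 1.43 (SE 0.06, adjusted p = 1.05e-06 from limma), and it stayed between 1.362 and 1.496 when each library was left out in turn. With the length and GC curve taken out it was 1.14 (adjusted p = 2.68e-04 from limma). RPS21 moved from positions 13 and 8 in WT to position 2 in both TXNDC9-KO libraries, from 1.11 and 1.29 to 2.21 and 2.11 times the median member. Its relative log2 fold change was 0.85 (SE 0.07, adjusted p = 9.56e-06 from limma), short of 2-fold. RPS12, RPS18, RPS26 and RPS27A also passed on the higher side, with relative values of 0.45, 0.43, 0.42 and 0.24.

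RPS28 was 0.713 and 0.890 times the median member in WT and 0.375 and 0.336 times in TXNDC9-KO. Its relative log2 fold change was -1.17 (SE 0.11, adjusted p = 1.35e-05 from limma), between -1.33 and -1.01 with each library left out in turn. With the length and GC correction it was -0.75 (adjusted p = 0.00189 from limma), short of 2-fold, which left RPS29 as the 1 member past it, where 1.57% of all tested genes were called lower and 29.9% higher. RPS15 moved from positions 9 and 11 in WT to position 23 in both TXNDC9-KO libraries, with a relative log2 fold change of -0.94 (SE 0.06, adjusted p = 5.48e-06 from limma). RPS27, RPS24, RPS16, RPS2, RPS6, FAU, RPS19, RPS7 and RPS15A passed on the lower side with relative values from -0.64 (RPS27) to -0.25 (RPS15A). With the length and GC curve taken out, RPS16 (-0.14), FAU (-0.0056), RPS19 (-0.08) and RPS7 (-0.07) no longer passed the adjusted p, RPS2 turned to 0.19 without passing it, and RPS15 was -0.48. RPS20, RPS25, RPS14, RPS23, RPS9, RPS10, RPS13, RPS3, RPS3A, RPS4X and RPSA lay between -0.12 (RPS20) and 0.18 (RPSA), and none of them passed the adjusted p. With the length and GC curve taken out, however, RPS9 (0.56), RPSA (0.44) and RPS10 (0.38) passed it on the higher side and RPS23 (-0.50) on the lower (limma, Benjamini-Hochberg). On that scale the median of all tested genes was 0.69. Of 13112 genes, 9089 were higher and 968 lower at an unadjusted p under 0.05 (limma), so a higher value was common there. Without the trend in the prior variance 4 members passed the adjusted p, where 48.1% of all tested genes did in either direction.

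**Figure D4:**
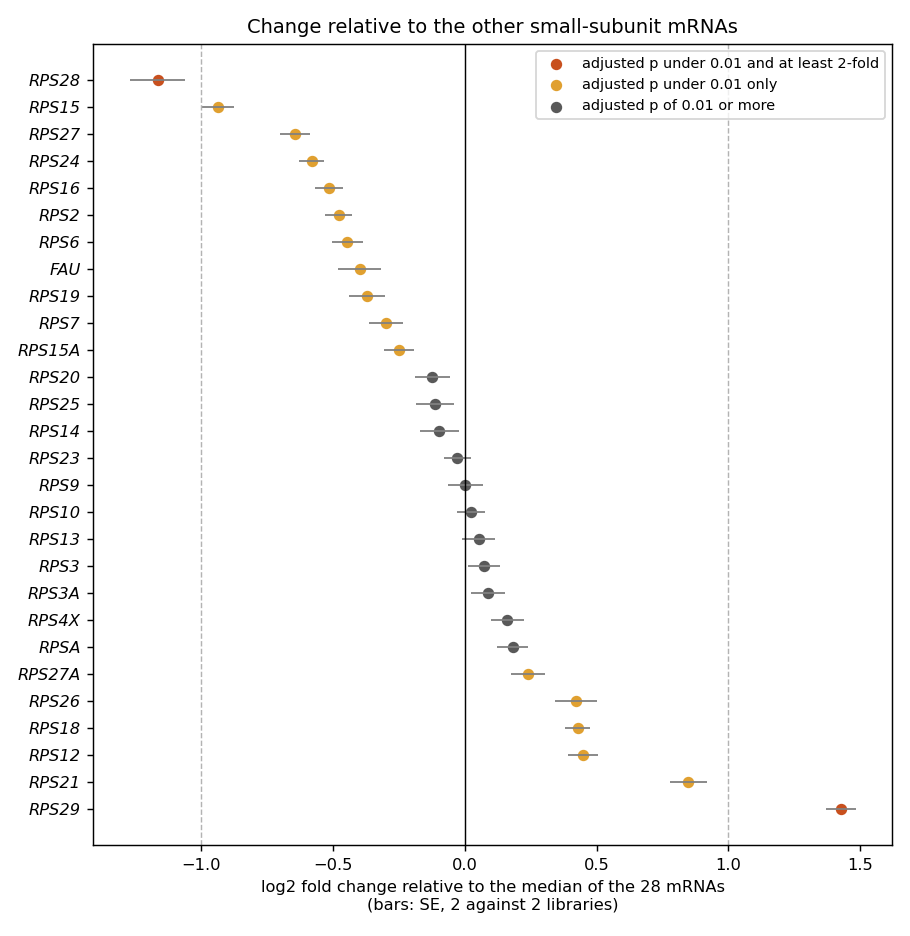
Log2 fold change of each mRNA relative to the median of the 28 in the same library (bars: SE, 2 against 2 libraries), with members past 2-fold in orange, those past the adjusted p alone in yellow and the rest in grey; dashed lines mark a 2-fold difference. RPS29 (1.43) and RPS28 (-1.17) lie outside the dashed lines.

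Short proteins stood at both ends of the range. By coding length RPS29 (56 codons), RPS28 (69 codons), RPS21 (83 codons) and RPS27 (84 codons) are the 4 shortest of the 28, and they hold the 2 highest and 2 of the 3 lowest log2 fold changes. Spearman's rho of the log2 fold change over all 28 was 0.0767 with coding length, -0.30 with the GC content of the canonical transcript and -0.315 with the WT level. These describe 28 genes measured in the same 4 libraries. The 19 genes with a C and T run at the annotated start had a median log2 fold change of -0.97 (range -1.62 to -0.12). The 6 without, among them RPS28, RPS15 and RPS29, had a median of -1.04 (range -2.14 to 0.46). Of these, RPS28 and RPS15 had a run near the annotated start, so the division is only as good as the annotation.

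The order of levels changed with the group. Log2 levels of the 28 mRNAs had a Pearson correlation of 0.992 between the WT libraries and 0.997 between the TXNDC9-KO libraries, and of 0.733 to 0.754 between libraries of different groups. The head of the subunit holds 12 of the members (RPS3, RPS10, RPS12, RPS15, RPS16, RPS18, RPS19, RPS20, RPS25, RPS27A, RPS28 and RPS29) and the body and platform the other 16. Of the head members 6 were called lower, with a median of -1.02 and a range from -2.14 to 0.46. Of the body and platform members 8 were called lower, with a median of -1.03 and a range from -1.62 to -0.12. The head thus held both ends of the range. On the TPM scale 2 head members were called lower and 1 higher (median -0.34), and 0 of the body and platform were called (median -0.35). Of the 10 members known from Diamond-Blackfan anaemia (RPS7, RPS10, RPS15A, RPS19, RPS20, RPS24, RPS26, RPS27, RPS28 and RPS29), 7 were called lower, with a median of -1.25, and RPS10, RPS26 and RPS29 were not called. On the TPM scale 1 of the 10 was called lower and 1, RPS29, higher, with a median of -0.57, and with the length and GC curve taken out 4 were called lower. In the same 3 settings 14, 2 and 7 of all 28 members were called lower. The shares of all tested genes were 15.3%, 3.37% and 7.39% lower, and 14.2%, 33.1% and 6.41% higher. Whether any of these parts differs from the other members was not tested.

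Ribosomal protein genes have many processed copies in the genome that can take or lend reads. The table lists 338 rows named as pseudogenes of 27 of the members (none for RPS25), of which 7 had an average above 1 FPKM. Their values summed to between 0.399% and 0.842% of the members' sum in a library. The copies exceeded 1% of their member in some library for 3 members. For RPS2 the share was largest of the 3: RPS2P5 was 253 and 247 FPKM in WT and 196 and 214 FPKM in TXNDC9-KO, and the copies summed to 5.92% and 4.77% of RPS2 in WT and 11.7% and 11.9% in TXNDC9-KO. Copies of RPS24 summed to 0.745% and 0.376% of RPS24 in WT and 2.01% and 2.26% in TXNDC9-KO, and those of RPS26 to 2.11% and 1.83% of RPS26 in WT and 0.321% and 0.381% in TXNDC9-KO. Copies of RPS28 and RPS29 were listed at 0 in all 4 libraries, and those of RPS21 at no more than 0.156% of RPS21. The members' values remain uncertain to the extent that reads were split among copies.

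Other genes of the same machinery were described by their counts and medians. As background, 15.3% of all tested genes were called lower and 14.2% higher as deposited, with a median of -0.09. The shares were 3.37% and 33.1% on the TPM scale, and 7.39% and 6.41% with the length and GC curve taken out. Of 47 large-subunit proteins, 31 were called lower and 0 higher. Their median was -1.25, and they ran from -2.27 (RPL28) to -0.21, so that none had a positive value. On the TPM scale 11 were called lower, with a median of -0.57, and with the length and GC curve taken out 19. RPL28 was 1693 and 2364 FPKM in WT and 407 and 421 FPKM in TXNDC9-KO, and RPLP2, a stalk protein, 2099.8 and 2888 FPKM in WT and 565 and 589 FPKM in TXNDC9-KO. Of the 28 mitochondrial small-subunit proteins, which belong to another ribosome, 10 were called lower and 0 higher, with a median of -0.91. On the TPM scale 0 were called, with a median of -0.23, and with the length and GC curve taken out 5 were called lower. MRPS26 was 138 and 174 FPKM in WT and 49.4 and 49.8 FPKM in TXNDC9-KO, and MRPS17 72.1 and 97.8 FPKM in WT and 29.6 and 30.9 FPKM in TXNDC9-KO.

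Among 16 factors that mature and export the 40S precursor, 4 were called lower (NOC4L, TSR3, RRP12 and RRP7A) and 0 higher, with a median of -0.75. On the TPM scale 2 were called lower and 1 higher, with a median of -0.07. NOC4L, of the early processome, was 68.7 and 91.9 FPKM in WT and 19.9 and 19.6 FPKM in TXNDC9-KO. TSR3, which modifies the ribosomal RNA, was 190.3 and 239.97 FPKM in WT and 60.5 and 69.8 FPKM in TXNDC9-KO. TSR2, the carrier of RPS26, had a log2 fold change of -0.75 (SE 0.10, adjusted p = 0.00166 from limma), under 2-fold. RIOK3 was the only factor of the 16 that passed the adjusted p on the higher side, at 0.58 (adjusted p = 0.00448 from limma). Of the 21 initiation factors that bind the 40S subunit, 5 were called lower (EIF3F, EIF3G, EIF3K, EIF3M and EIF5B). Another 3 were called higher (EIF3A, EIF3C and EIF5), and the median was -0.65. Over all tested genes 15.3% were called lower and 14.2% higher. With the length and GC curve taken out 3 initiation factors were called lower and 1 higher, where 7.39% and 6.41% of all tested genes were. On the TPM scale 0 of these factors were called lower and 6 higher, with a median of 0.03. On that scale 33.1% of all tested genes were called higher, and their median was 0.59. EIF3G was 277 and 343 FPKM in WT and 104 and 116 FPKM in TXNDC9-KO, and EIF3M 522 and 599 FPKM in WT and 206 and 216 FPKM in TXNDC9-KO. EIF5 was 57.1 and 57.1 FPKM in WT and 135 and 138 FPKM in TXNDC9-KO. Whether these lists differ from the members was not tested.

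**Figure D5:**
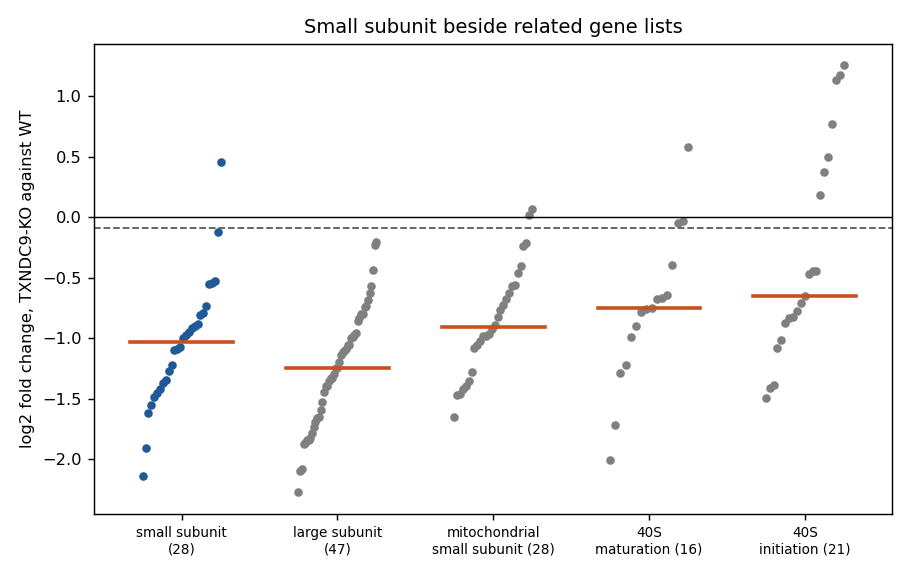
Log2 fold change, TXNDC9-KO against WT, of each gene (points) of the small subunit (blue) and of 4 related lists (grey), with the list median as an orange bar and the median of all tested genes (-0.09) as a dashed line. Medians run from -1.25 in the large subunit to -0.65 among the initiation factors.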

How the data were processed

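RNA from 2 WT and 2 TXNDC9-KO libraries was selected for poly(A), and reads were aligned by the authors with TopHat2 (hg38, Ensembl annotation). The authors deposited FPKM per gene and library from Cuffdiff, with group averages, log2 fold changes and p-values, which were not used here. Tool versions, strand use and Cuffdiff's library normalization are not given in the sources used here. In the deposited table identifiers and symbols stood on different lines: after the identifiers were put back in order, 34949 of 57979 symbols equalled those of GENCODE release 44, against 1 before. Log2(FPKM + 0.1) of the 13246 genes with an average above 1 FPKM was compared with limma 3.58.1 in R 4.3.3 (trended prior variance, no replicate block, Benjamini-Hochberg adjustment), and calls needed an adjusted p under 0.01 together with a 2-fold change. An exact permutation test of 2 against 2 libraries cannot give a p below 0.333. The alternatives tried were pseudocounts of 1 and 0.01, a filter at 5 FPKM and none, TPM, median centring, no trend, the replicate block, an adjusted p under 0.05, each library left out, summed rows of a repeated symbol, and a loess correction (span 0.3) for length and GC content of canonical transcripts, which 99.0% of tested genes had. Of 200 genes changed 4-fold (2 on the log2 scale) among 13246 in simulated data, limma recovered 68.5% with 1 false call. The simulated noise was independent for each gene and library and was drawn from limma's own fitted variances. Shifts shared by many genes of a library were not simulated, so the false calls they may give were not measured. The members and lists were chosen with earlier results of these data known. All 28 members are named, with values per library for the 5 lowest and 5 highest log2 fold changes, the 3 highest and 3 lowest levels and members off the median member, and the 2 largest changes of each list. Others were chosen after their values were seen. A further list and a marker gene are not reported here. Python 3.11.15 was used with pandas 2.3.3, numpy 2.4.6, scipy 1.17.1 and matplotlib 3.10.9.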

Additional observations from a re-analysis of the deposited data

How the results depend on the processing

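The count of 14 members called lower became 2 without the filter on low values, 2 after rescaling to TPM (with 1 called higher) and 7 with the length and GC correction, with or without the replicate block. It ranged from 0 to 21 with each library left out, and all called genes, 3906 as deposited, from 0 to 4769. Without TXNDC9-KO replicate 1, 3670 genes were lower and 3459 higher at an unadjusted p under 0.05. Without replicate 2 they were 4013 and 3294. The correction left 1810 called genes, or 1816 with the replicate block, which was added after seeing the data. The members' median moved from -1.03 to -0.35 (TPM) and -0.76 (correction, also with the block), and from -1.24 to -0.81 with each library left out. The 2 members off the median member became 1 with the correction, with or without the block, and the 17 past the adjusted p alone became 4 without the trend. Signs turned for RPS26 (0.13), RPS18 (0.14), RPS12 (0.16), RPS21 (0.56) and TXNDC9 (0.12) under TPM, for RPS21 also with the correction (0.18) and without WT replicate 2 (0.18, against -0.42 without WT replicate 1), and for RPS2 relative to the median member with the correction (0.19). Same-numbered libraries deviated with a correlation of -0.0904 over 13246 genes, which is no sign of pairing, and with the replicate block 14 members were called lower. Apart from what the alternatives themselves change, the cause of these moves was not tested. With no counts, depth could not be weighed, and groups of 2 allow no check for an outlying library.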
